A study of Macaca mulatta with 30 samples.

Results

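Of a list of 7 genes for pancreatic fat digestion, 6 had a value in a table of 21292 genes from rhesus macaque (Macaca mulatta) tissues. The list held PNLIP, PNLIPRP1, PNLIPRP2, CEL, CLPS, PLA2G1B and, for contrast, the liver lipase LIPC. Members were listed by name, with earlier results of these data known, and CEL is not analysed here. Samples came from 5 tissues of 6 animals, namely pancreas, liver and the salivary glands parotid, submandibular and sublingual, with 1 library per tissue and animal, 30 libraries in all. The females were animals 1 to 4, the males animals 5 and 6, with no treatment named in the labels. RNA came from 3 frozen sections of 30 µm per tissue, and the parotid was the right gland in animal 3 and the left gland in the others. The study set the salivary glands against the pancreas, and the pancreas against the liver, within the same animals.

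Dietary fat reaches the gut mainly as triglyceride, which acinar cells of the pancreas digest with enzymes that they store in granules and secrete through the ducts. PNLIP is the main triglyceride lipase of the juice, and CLPS encodes colipase, the small protein cofactor that anchors it to fat droplets coated with bile salts. PNLIPRP2 is a related enzyme that acts on galactolipids and phospholipids, PNLIPRP1 is a related protein with little known lipase activity, and PLA2G1B is the pancreatic phospholipase A2, secreted as a proenzyme that trypsin activates. LIPC, hepatic lipase, belongs to the same lipase family but is made by hepatocytes and acts on lipoproteins in blood.

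Levels are TPM, the share of a library's transcripts after scaling to transcript length, so genes can be compared within a library while sequencing depth is unknown. A set of 14 other acinar products (trypsinogens, chymotrypsins, carboxypeptidases, elastases and granule proteins) checked the pancreas label. Its median was 7386 to 22761 TPM in the pancreas of 5 animals and 168 TPM in that of animal 4. The animal 4 pancreas library also held 19372 TPM summed over 7 adipocyte markers and 13952 TPM over 5 red cell markers, against 19.2 to 1848 and 79.5 to 472 in the other pancreas libraries, and none of these markers was at 0 in it. The submandibular library of animal 4 held 2593 TPM over 12 salivary markers, against 274384 to 386371 in the others, with 8883 TPM of adipocyte and 10908 TPM of red cell markers. Its sublingual library was low as well, at 5828 TPM of salivary markers against 48526 to 464342. The pancreas library of animal 3 stood apart in another way, with 132640 TPM over 7 islet markers, most of it insulin, against 450 to 12707 in the other pancreas libraries. Markers of skeletal muscle (8 genes) summed to 64366 TPM in the parotid of animal 6 and 21964 in the sublingual gland of animal 5. In animal 1 they summed to 6830 TPM in the sublingual gland and 4695 in the parotid, against 41.3 to 750 in the other gland libraries. All these libraries were kept, fits are also given without animal 4, and the part of those other cells in the results was not tested. In bulk tissue, fewer cells of a type and less RNA per cell cannot be told apart.

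Colipase was the most abundant of these transcripts in the pancreas. CLPS stood at 60030, 75188, 59960, 1107, 100414 and 95355 TPM in animals 1 to 6, a mean of 65342 ± 35808 (SD, n = 6), or 78190 ± 19103 (SD, n = 5) without animal 4. It ranked between 1 and 3 among all genes in 5 pancreas libraries and 169 in that of animal 4. Outside the pancreas CLPS ranged over 174 to 982 TPM in the parotid (median 435), 232 to 1003 in the submandibular gland (median 317), 139 to 1150 in the sublingual gland (median 540) and 422 to 1139 in the liver (median 551). The pancreas of animal 4 thus lay inside the range of the other tissues, and the other 5 pancreas libraries lay far above every other library.

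PNLIP, the lipase that colipase serves, stood at 33622, 34279, 8698, 320, 19285 and 31896 TPM in the pancreas of animals 1 to 6. Its median was 25590 TPM there, against 215 in the liver (range 151 to 496), 197 in the parotid (55.1 to 266), 159 in the sublingual gland (25.7 to 349) and 136 in the submandibular gland (101 to 202). Animal 3 had the lowest pancreatic PNLIP after animal 4, while its colipase was close to that of animal 1. This was the library with 132640 TPM of islet markers and 1848 TPM of adipocyte markers, whose part in the PNLIP level was not tested. PNLIP ranked between 6 and 18 in 5 pancreas libraries.

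The pancreatic phospholipase was the second of the group by level. PLA2G1B stood at 27005, 33705, 16336, 328, 36857 and 37067 TPM in the pancreas of animals 1 to 6, with a median of 30355. Its medians elsewhere were 263 TPM in the liver (140 to 485), 190 in the sublingual gland (41.7 to 444), 177 in the parotid (84.5 to 353) and 154 in the submandibular gland (84.7 to 348). The highest submandibular value, 348, was that of animal 4, above its own pancreas.

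Both lipase-related proteins were lower than PNLIP in median. PNLIPRP1 stood at 11172.5, 15150, 7694, 148, 11357 and 12528 TPM in the pancreas of animals 1 to 6, and PNLIPRP2 at 7456, 9481, 4495, 103, 7352 and 9398 TPM. In the other tissues PNLIPRP1 had medians of 60.9 to 98.5 TPM and PNLIPRP2 of 32.3 to 57.9 TPM. For PNLIPRP2 the lowest pancreas value, 103 TPM in animal 4, lay just above its highest value elsewhere, 96.2 TPM in a liver. For the other pancreatic members the pancreas of animal 4 lay inside the range of the other tissues. The remaining pancreas libraries lay far above every other tissue for each pancreatic member.

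For the 5 pancreatic members the order of tissues by median began with pancreas and liver and ended with the submandibular gland, and the parotid and sublingual glands lay between. Every pair of neighbours below the pancreas in these orders overlapped in range. The 5 members together made up 9.72% to 18.6% of the pancreas library in 5 animals and 0.201% in animal 4. Outside the pancreas they made up 0.0235% to 0.24%.

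LIPC behaved differently. It stood at 8.83, 10.96, 7.81, 14.7, 25.7 and 16.1 TPM in the liver of animals 1 to 6, a mean of 14.02 ± 6.59 (SD, n = 6). The pancreas came next with 2.63, 3.68, 1.48, 0.445, 1.58 and 1.15 TPM, and the glands followed with medians of 0.249 (submandibular), 0.235 (sublingual) and 0.208 (parotid). No liver value overlapped a pancreas value, while the pancreas of animal 4 lay below its own submandibular library at 1.31 TPM. Even in liver, its home tissue, LIPC was far below every one of the 5 pancreatic members in the pancreas of any animal.

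**Figure D1:**
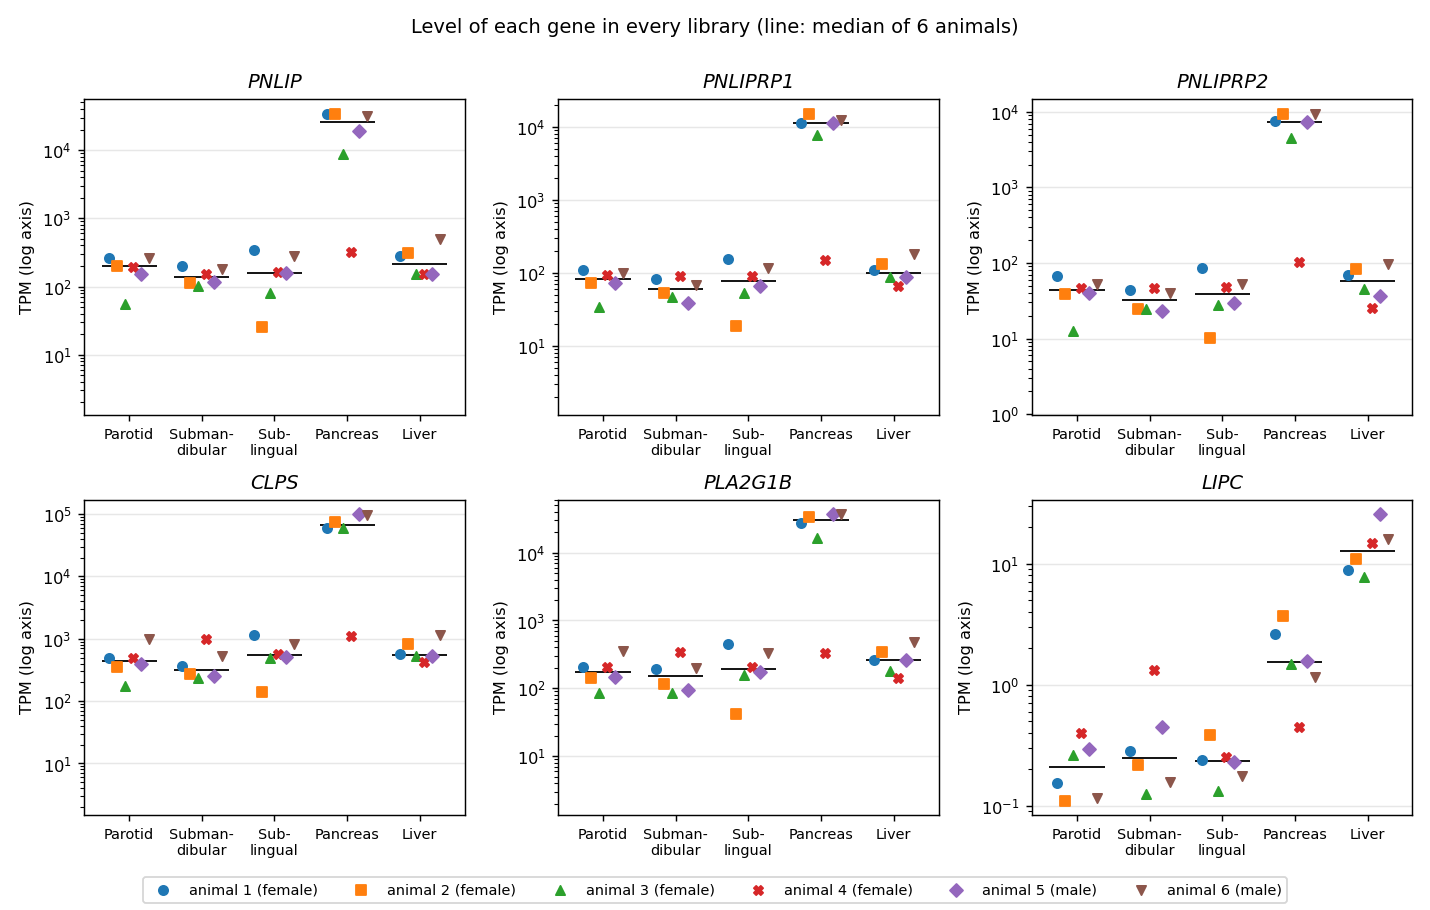
TPM on a log axis for each of the 6 genes in the 5 tissues; each symbol is 1 animal and the line is the median of 6. The 5 pancreatic genes are high in the pancreas of 5 animals and near the level of the other tissues in that of animal 4, and LIPC is highest in the liver (7.81 to 25.7 TPM).

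Glands against the pancreas were the main comparisons of the study, and the parotid, a serous gland, is given before the others. All 6 members were lower in the parotid by limma on log2(TPM + 1) across all genes past a filter, at a Benjamini-Hochberg adjusted p under 0.05, where 13.6% of all genes tested were lower. CLPS was 89.3-fold lower, a log2 fold change of -6.48 (SE 0.71, adjusted p = 4.21e-07 by limma), and in 6 of 6 animals. The other pancreatic members had log2 fold changes of -6.52 (PNLIPRP2), -6.30 (PLA2G1B), -6.17 (PNLIPRP1) and -6.05 (PNLIP), each lower in 6 of 6 animals. LIPC was 2.17-fold lower in TPM + 1, also in 6 of 6 animals. Its log2 fold change was -1.12 (SE 0.26, adjusted p = 0.00381 by limma). The added 1 TPM shrinks this change, since LIPC medians were 0.208 TPM in the parotid and 1.53 in the pancreas. Without animal 4 the changes of the 5 pancreatic members were -7.11 (PNLIP) to -7.60 (PNLIPRP2) and that of LIPC -1.33 on the log2 scale.

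In the submandibular gland all 6 members were again lower than in the pancreas, against 7.46% of all genes tested. CLPS differed by -6.63 on the log2 scale (SE 0.71, adjusted p = 3.17e-07 by limma), PNLIPRP2 by -6.77, PNLIPRP1 and PLA2G1B by -6.48 and PNLIP by -6.31. Animal 4 was the exception for PLA2G1B, and the other 5 animals were lower. For LIPC the difference was -0.94 (SE 0.26, adjusted p = 0.0187 by limma), lower in 5 of 6 animals. This call ended when any of animals 1, 2, 3, 5 or 6 was left out, with changes of -0.74 to -0.96, and without animal 4 it held at -1.26. The 5 pancreatic members had -7.36 (PNLIP) to -7.92 (CLPS) without animal 4.

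In the sublingual gland, which is mainly mucous, all 6 members were lower in 6 of 6 animals, against 3.51% of all genes tested. PNLIPRP2 had a log2 fold change of -6.65, PNLIP of -6.40, PNLIPRP1 of -6.30, PLA2G1B of -6.24 and CLPS of -6.18 (SE 0.71, adjusted p = 4.83e-07 by limma). LIPC changed by -1.10 (SE 0.26, adjusted p = 0.00391 by limma). Without animal 4 the 5 pancreatic members had -7.23 (CLPS) to -7.76 (PNLIPRP2), and LIPC -1.28.

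The pancreas was also set against the liver. The 5 pancreatic members were higher in the pancreas, against 6.76% of all genes tested, and LIPC was lower, against 23.6%. PNLIPRP2 had the largest log2 fold change among the members, 6.06 (SE 0.68, adjusted p = 5.77e-08 by limma), followed by CLPS at 5.90, PLA2G1B at 5.74, PNLIPRP1 at 5.70 and PNLIP at 5.59. Every animal showed these directions. LIPC was 5.30-fold lower in TPM + 1 in the pancreas, in 6 of 6 animals. Its log2 fold change was -2.40 (SE 0.26, adjusted p = 2.89e-08 by limma). Here too the added 1 TPM shrinks the change, with LIPC medians of 1.53 TPM in the pancreas and 12.8 in the liver. Without animal 4 the changes were 6.50 (PNLIP) to 6.87 (PNLIPRP2) for the pancreatic members and -2.20 for LIPC.

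**Figure D2:**
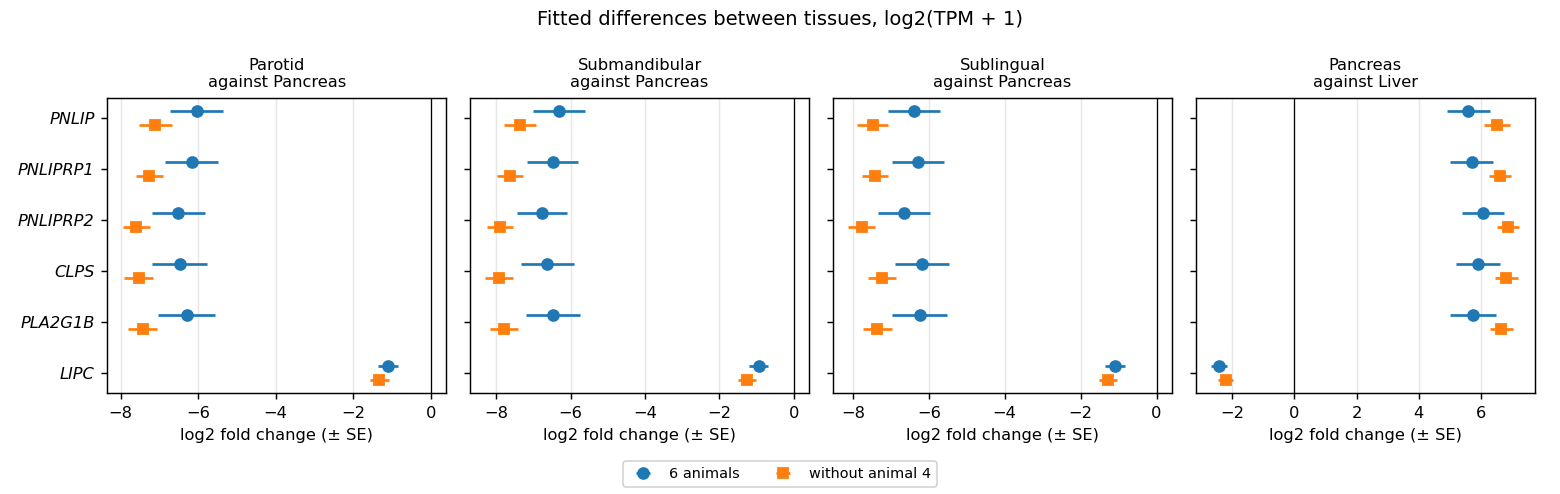
Log2 fold change of each member on the log2(TPM + 1) scale with its standard error (bars), for each gland against the pancreas and for the pancreas against the liver, with all 6 animals (circles) and without animal 4 (squares). The 5 pancreatic members lie near 6 in size and LIPC near 1 or 2, and leaving out animal 4 moves the pancreatic members away from 0.

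Each pair of tissues was also tested alone, by exact permutation of the signs of the 6 within-animal differences (two-sided), which cannot go below p = 0.03125. Of 42 such tests (6 members, 7 pairs of tissues) 25 reached it. None was under 0.05 after adjustment over the 42, where the smallest value was 0.0525. With 25 of the 42 at the smallest p, none could pass whatever the size of its difference. For PLA2G1B and LIPC in the submandibular gland against the pancreas the exact permutation p was 0.0625.

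The direction of these differences did not depend on how libraries were scaled. With a trimmed-mean scaling of the libraries, CLPS had log2 fold changes of -5.71, -6.07 and -6.47 in the 3 glands against the pancreas and 6.35 in the pancreas against the liver. The median gene moved from -0.48, -0.33, 0.23 and -0.36 in those 4 comparisons to 0.04, 0.01, 0.02 and -0.04. The split of all calls moved too: genes higher and lower in the parotid numbered 303 and 1838 without this scaling and 1208 and 1145 with it. In the same order the numbers were 305 and 1011 against 1118 and 1060 in the submandibular gland, 1412 and 475 against 1539 and 1351 in the sublingual gland, and 916 and 3198 against 2064 and 2928 in the pancreas against the liver.

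Between the glands and the liver only LIPC passed the test, with log2 fold changes of -3.52 in the parotid, -3.34 in the submandibular gland and -3.50 in the sublingual gland (SE 0.26 each), lower in 6 of 6 animals. The shares of all genes tested that were lower were 53.4%, 45.1% and 18.7%. The 5 pancreatic members had log2 fold changes of -0.28 to -0.81 in these comparisons, with limma adjusted p values of 0.348 to 0.811. With trimmed-mean scaling the same 5 members had values of 0.64 to 0.76 in the parotid and 0.22 to 0.29 in the submandibular gland, and -0.12 to -0.65 in the sublingual gland. Without animal 4, 4 of them passed the test in the submandibular gland against the liver (CLPS -1.12, PLA2G1B -1.16, PNLIPRP1 -1.03 and PNLIPRP2 -1.03), against 67.5% of all genes lower. In the parotid and the sublingual gland LIPC alone was called without animal 4 (-3.53 and -3.47), against 62.3% and 22.6% of all genes lower, and the 5 pancreatic members had -0.61 to -0.79 in the parotid and -0.42 to -0.99 in the sublingual gland.

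Among the 3 glands none of the 6 members passed the limma test, and 0 had an unadjusted p under 0.05. The share of all genes called in either direction was 0.347% between parotid and submandibular gland, 41.5% between parotid and sublingual gland and 27.9% between submandibular and sublingual gland. Log2 fold changes of the members ran from -0.45 to 0.35. Without animal 4 they ran from -0.70 to 0.39, again with none called, against 0.635%, 56.2% and 65.4% of all genes.

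The low levels outside the pancreas were nearly the same share of the pancreas level for each of the 5 genes. Taken as a percentage of the median pancreas library, the tissue medians of the 5 members were 0.583% to 0.77% in the parotid, 0.437% to 0.541% in the submandibular gland, 0.526% to 0.798% in the sublingual gland and 0.781% to 0.874% in the liver. The 14 other acinar products had medians over genes of 0.742%, 0.585%, 0.784% and 0.97% in these tissues. SYCN, a granule protein listed at only 4.96 TPM in the median pancreas library, was the exception among them, with 28.4% to 51.5%.

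The level also moved between libraries together with the other acinar products. The sublingual library of animal 2 had the lowest value, a median of 0.137% over the 5 members and 0.175% over the acinar products. The liver of animal 6 had the highest, 1.63% and 1.93%. In the parotid the lowest was animal 3, at 0.258% and 0.26%, and the highest animal 6, at 1.02% and 1.12%. Animal 4, whose own pancreas library was at 1.31%, had 0.716%, 0.807%, 0.681% and 0.593% in its parotid, submandibular, sublingual and liver libraries.

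Liver products showed a like share in tissues other than the liver. Over 12 genes (11 hepatocyte markers and LIPC) the median was 0.601% of the liver level in the parotid, 0.68% in the submandibular gland, 0.857% in the sublingual gland and 1.03% in the pancreas. LIPC was the highest of the 12 by median in each of these tissues, at 1.62%, 1.94%, 1.83% and 11.9%. In the glands this rests on LIPC medians of only 0.208 to 0.249 TPM. ARG1 had a median of 0.902% in the sublingual gland but reached 110% in a library there. Beside LIPC, TTR, the plasma thyroxine carrier, was above the others in the pancreas at 7.52%, and reached 37.4% in that of animal 3. Islet cells are also known to make TTR, and the part of the high islet markers of that library in this value was not tested. What part transcripts carried between libraries or tissues have in these low levels was not tested.

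**Figure D3:**
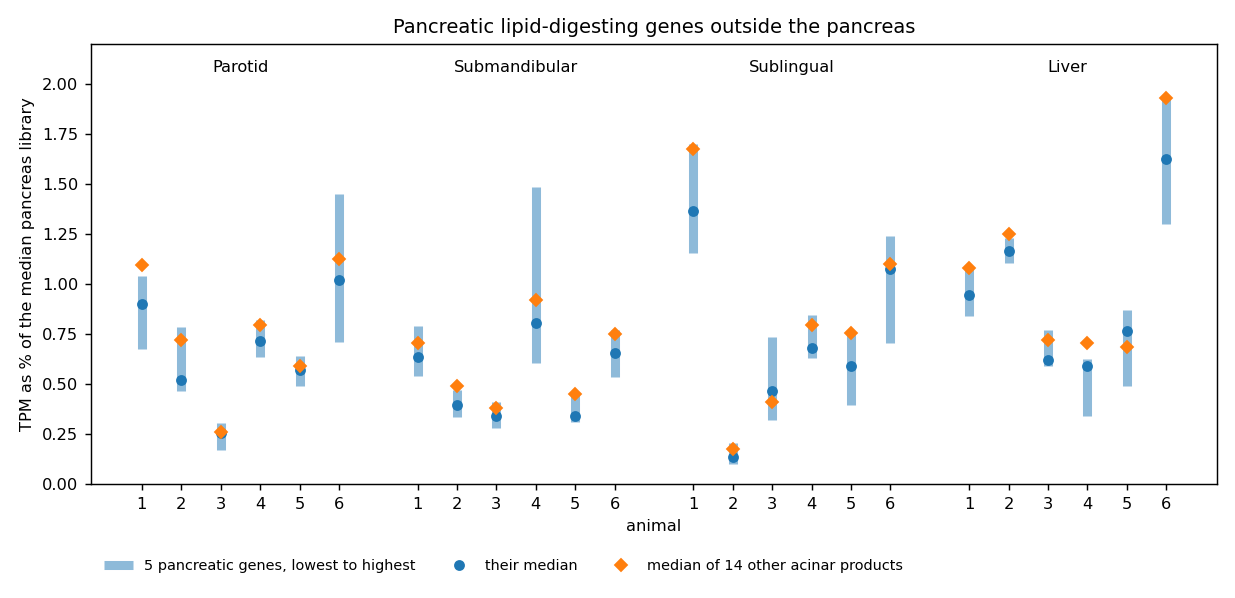
Each library outside the pancreas, by tissue and animal: the bar runs from the lowest to the highest of the 5 pancreatic genes as a percentage of the median pancreas TPM, the circle is their median and the diamond the median of 14 other acinar products. All values lie between 0.10% and 1.94%, and the diamond tracks the circle from library to library.

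Within the pancreas PNLIP varied against the other 4 members, which kept closer to each other. CLPS was 43.1% to 61.7% of the summed TPM of the 5 genes, PLA2G1B 16.3% to 21.0%, PNLIP 8.95% to 24.1%, PNLIPRP1 6.48% to 9.03% and PNLIPRP2 4.19% to 5.65%. The ratio of CLPS to PNLIP was 1.79, 2.19, 6.89, 3.46, 5.21 and 2.99 in animals 1 to 6. Animals 3 and 5, the high ones, had less PNLIP than animals 1, 2 and 6, and animal 3 was the one with the high islet markers. The other ratios to PNLIP varied as well, from 0.803 to 1.91 for PLA2G1B, 0.332 to 0.884 for PNLIPRP1 and 0.222 to 0.517 for PNLIPRP2. The ratio of CLPS to PLA2G1B spread less, from 2.22 to 3.67, and that of PNLIPRP1 to PNLIPRP2 least, from 1.33 to 1.71. Outside the pancreas the last of these ratios was 1.57 to 2.73.

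The make-up was then compared between tissues as the level of each gene over the median of the 14 acinar products in the same library, which does not change with the share taken by other transcripts. PNLIPRP2 had smaller values of this measure outside the pancreas, with a mean log2 difference of -0.46 (SD 0.23, n = 6) in the parotid, -0.58 (SD 0.28, n = 6) in the submandibular gland and -0.62 (SD 0.22, n = 6) in the sublingual gland. The pancreas was above the liver by 0.53 (SD 0.42, n = 6). In all 4 comparisons 6 of 6 animals had the same direction and the exact sign-flip permutation p was 0.03125, the smallest possible. Adjustment over 20 tests gave 0.156. With so few tests at the smallest p, none could pass whatever the size of its difference. PNLIP had a mean difference of 0.01 in the parotid against the pancreas, higher in 3 of 6 animals. The 4 for PNLIPRP2 were the only tests of the 20 under 0.05 before adjustment. With the mean of the acinar products in place of their median, 14 of the 20 passed after adjustment. That mean moves more than the median with SYCN, whose medians elsewhere were 28.4% to 51.5% of its pancreas level. The part of SYCN in these 14 was not tested.

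**Figure D4:**
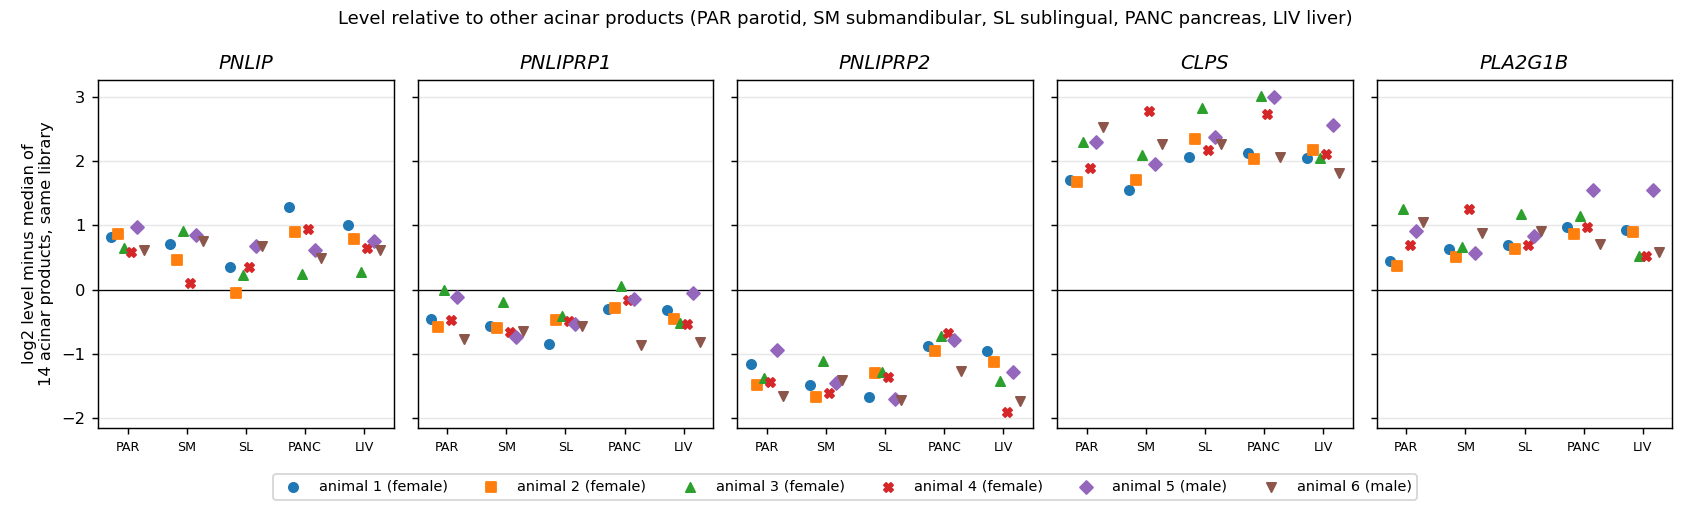
Log2 level of each pancreatic member minus the median log2 level of 14 other acinar products in the same library, by tissue (symbols: animals). PNLIPRP2 lies between -1.27 and -0.68 in the pancreas and between -1.91 and -0.94 elsewhere, with some overlap, and the other 4 genes overlap more widely.

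By likeness over the 30 libraries (Pearson r of log2(TPM + 1), a description in which the 6 pancreas libraries set most of the spread), each pancreatic member sat next to other acinar products. The 3 most alike were CPA1 (r = 0.998), CPB1 and PRSS2 for PNLIP, and PRSS1, CUZD1 and SERPINI2 for PNLIPRP2. For PNLIPRP1 they were CELA3B, PDIA2 and CUZD1, for CLPS CELA3B, CTRC and SPINK1, and for PLA2G1B CELA3B, CTRL and PDIA2. Among themselves the 5 members had r of 0.981 to 0.998. LIPC had r of 0.164 to 0.183 with them, and was most like HGD (r = 0.973), SORD and ABCC6, which are expressed in liver.

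LIPC in the liver was higher in both males, at 16.1 and 25.7 TPM, than in any of the 4 females, at 7.81 to 14.7 TPM. The mean log2 difference was 0.92, with an exact two-sided permutation p of 0.0667, the smallest that 15 splits of 2 males and 4 females allow. Of all genes tested, 8.88% had both males above all 4 females in the liver.

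The neighbours of PNLIP on its chromosome, by their order in the RefSeq annotation of assembly T2T-MMU8v2.0, were looked at after the members' values were known. PNLIPRP3, PNLIP, PNLIPRP1 and PNLIPRP2 follow each other there, with CCDC172 and GFRA1 on the PNLIPRP3 side. PNLIPRP3, the remaining relative of the cluster, reached at most 0.135 TPM in any library and 0.0979 TPM in a pancreas. CCDC172 was listed at 0 in all 30 libraries, and GFRA1, a receptor subunit for neurotrophic factors, ranged over 0.188 to 0.8 TPM in the pancreas. On the PNLIPRP2 side SPMIP5 comes next and had no value here. HSPA12A beyond it had 0.305 to 7.18 TPM in the pancreas (median 0.434). High pancreas levels were thus found for 3 adjacent genes and not for PNLIPRP3, CCDC172, GFRA1 or HSPA12A. How reads common to the related genes of the cluster were divided was not tested.

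More distant relatives were mostly low in the pancreas. Of 25 relatives in the table (other neutral and acid lipases, colipase-like genes, carboxylesterases and secreted phospholipases A2) 13 passed the filter. CLPSL2, a colipase-like gene, had 0.27 to 7.27 TPM in the pancreas (median 2.26), was listed at 0 in all parotid libraries, and was lower in the submandibular (-1.39) and sublingual (-1.40) glands by limma (log2 fold changes). PLA1A, a phosphatidylserine phospholipase, was lower than in the pancreas in the parotid (-1.62), submandibular (-1.53) and sublingual (-1.11) glands, and higher still in the liver, at a median of 14.2 TPM. These were the 2 relatives that passed as lower in each gland, where 13.6%, 7.46% and 3.51% of all genes were lower. LIPH, a phosphatidic acid phospholipase, was the one relative called higher in a gland with all animals, with 1.79 to 24.5 TPM in the sublingual gland against 0.0935 to 0.261 in the pancreas, a log2 fold change of 2.42 (SE 0.38) in 6 of 6 animals, where 10.4% of all genes tested were higher. Without animal 4, 1 of the 13 was higher and 3 lower in the parotid and likewise in the submandibular gland, and 3 were higher and 2 lower in the sublingual gland. Over all genes without animal 4, 3.08% were higher and 17% lower in the parotid, 3.87% and 25.2% in the submandibular gland, and 26.6% and 4.97% in the sublingual gland.

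Against the liver, 8 of the 13 relatives were lower in the pancreas and 1, CLPSL2 (0.93, 5 of 6 animals), was higher, against 23.6% and 6.76% of all genes; without animal 4 they were 10 and 1, against 41% and 7.57%. CES2, a carboxylesterase, had a median of 256 TPM in the liver and 4.43 in the pancreas, a log2 fold change of -5.49 by limma. PLA2G12B, a secreted phospholipase-like protein, had 31.9 and 0.33 TPM (-4.62), and PLA2G2A, a secreted phospholipase of inflammation, 68.9 and 0.936 TPM (-3.77, lower in 5 of 6 animals, and -5.12 without animal 4). LPL, the lipase that clears triglyceride from plasma lipoproteins, had medians of 1.97 to 7.42 TPM in the 5 tissues. Its highest values, 571 TPM in a submandibular and 331 TPM in a pancreas library, came from the tissues of animal 4 with the high adipocyte markers; without that animal its highest values there were 11.2 and 47.1 TPM.

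**Figure D5:**
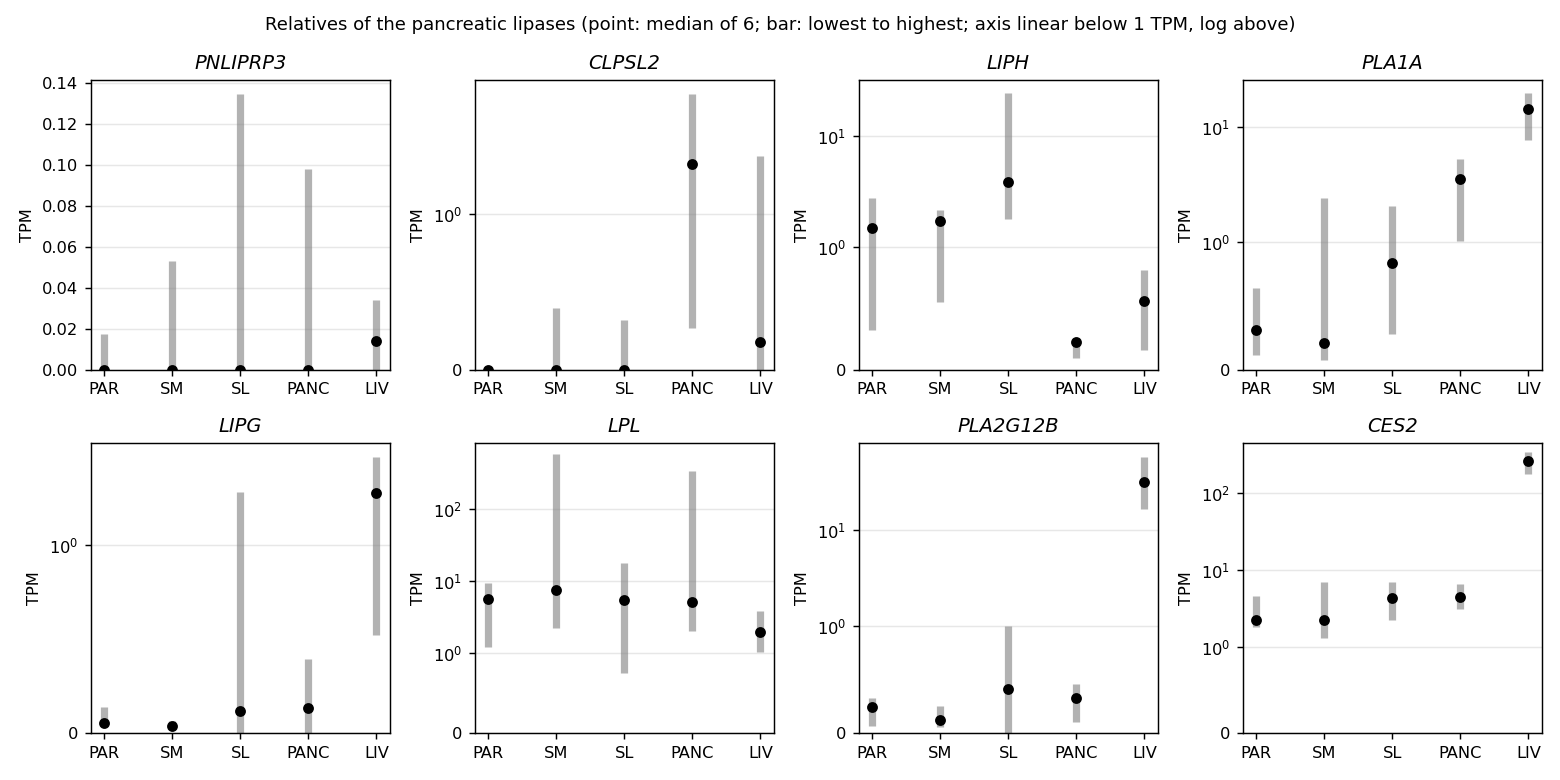
TPM of 8 relatives in the parotid (PAR), submandibular (SM), sublingual (SL), pancreas (PANC) and liver (LIV) libraries; points are medians of 6 animals and bars run from the lowest to the highest, on an axis that is linear below 1 TPM and log above (linear throughout for PNLIPRP3). LIPH is highest in the sublingual gland, CLPSL2 in the pancreas, and PLA1A, LIPG, PLA2G12B and CES2 in the liver.

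Bile salts are the other agent of fat digestion and are made in the liver. All 12 genes of bile salt synthesis and transport that were tested were lower in the pancreas than in the liver, against 23.6% of all genes. Their median log2 fold change was -4.41, against -0.36 over all genes. The bile acid CoA ligase SLC27A5 had -5.91, the bile salt importer SLC10A1 -5.74 and the reductase AKR1D1 -5.54. Against the pancreas, 1 of the 12 was called in the parotid (HSD3B7, lower by -1.63, against 13.6% of all genes). None was called in the submandibular or sublingual gland, against 7.46% and 3.51% of all genes lower. There 1 and 2 of the 12 had an unadjusted limma p under 0.05. Without animal 4, 1 of the 12 was lower in the submandibular gland, against 25.2% of all genes. In the sublingual gland 2 were then higher and 1 lower, against 26.6% and 4.97% of all genes.

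Partners of the plasma lipases followed the liver as well. Of 14 tested, 11 were lower in the pancreas than in the liver, against 23.6% of all genes. APOC3 (-7.04), APOC2 (-6.83) and APOA5 (-6.54) were lower by the most. GPIHBP1, the endothelial anchor of LPL, was the 1 higher (2.33, or 1.63 without animal 4), against 6.76% of all genes. In the parotid 4 of the 14 were lower than in the pancreas by limma, against 13.6% of all genes. They were GPIHBP1 (-2.07), LCAT (-1.80), APOC3 (-0.86) and APOC2 (-0.77). In the submandibular gland 1 of 14 was lower (LCAT -1.74), near the 7.46% of all genes. None of 14 was called in the sublingual gland, against 10.4% of all genes higher and 3.51% lower. There 2 had an unadjusted limma p under 0.05. Without animal 4 the submandibular gland had 4 lower and the sublingual gland 2 higher, against 25.2% and 26.6% of all genes, and GPIHBP1 in the parotid had -1.30. Without only the pancreas library of animal 4 the calls of GPIHBP1, APOC3 and LCAT in the parotid and of LCAT in the submandibular gland were lost.

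Few genes of fat droplet breakdown inside cells passed the test. By limma none of 10 was called in the parotid or submandibular gland against the pancreas. Of all 13550 genes, 2141 and 1316 were called there. An unadjusted limma p under 0.05 was seen for 0 of the 10, against 4512 and 3234 of all genes. MGLL, the monoglyceride lipase, was higher in the sublingual gland (1.77), 1 of 10 against 10.4% of all genes, which is near the background. PNPLA3 (-2.32) and ABHD6 (-1.12) were lower in the pancreas than in the liver, 2 of 10 against 23.6% of all genes; without animal 4 it was 4 of 10 against 41%, so both shares are near the background. PLIN1 and CIDEC of this list are also adipocyte markers.

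The transcription factors of acinar cells were lower in the glands in 7 of 8 tests per gland, against 13.6%, 7.46% and 3.51% of all genes in the parotid, submandibular and sublingual glands. BHLHA15, a factor of secretory cells in general, was not among those called in the parotid and submandibular glands. RBPJL, the acinar partner of PTF1A, had a median of 656 TPM in the pancreas (15.8 in animal 4's library, the lowest) and log2 fold changes of -6.47, -6.51 and -6.10 in the parotid, submandibular and sublingual glands, in 6 of 6 animals, or -7.48, -7.68 and -7.03 without animal 4. NR5A2, a nuclear receptor of acinar cells and liver, had -3.01, -2.92 and -3.03, and FOXA2 had -3.04, -3.14 and -2.88. Without animal 4 NR5A2 in the submandibular gland had -3.54 and FOXA2 in the sublingual gland -3.47. BHLHA15 had medians of 95.1 TPM in the pancreas, 90.6 in the parotid and 80.9 in the submandibular gland, and was lower in the sublingual gland (-2.68, or -3.37 without animal 4). Against the liver the 8 factors went both ways, with 2 higher and 3 lower in the pancreas, against 6.76% and 23.6% of all genes. RBPJL (5.95, or 6.86 without animal 4) and BHLHA15 (3.93, or 4.80) were higher. HNF4A (-4.13), a factor of hepatocytes, was among the 3 lower. Without animal 4, 7 of 8 were again lower in each gland. Against the liver 4 in place of 2 were then higher in the pancreas and 3 again lower, against 7.57% and 41% of all genes.

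The acinar products other than the members moved in the same comparisons as the members. Of 14, 13 were lower in each gland than in the pancreas and 13 were higher in the pancreas than in the liver, with median log2 fold changes of -6.09, -6.31, -6.10 and 5.63. Without animal 4 these medians were -7.17, -7.54, -7.19 and 6.57, and 13 were again called in each. For LIPC, by contrast, the 11 hepatocyte markers were lower than in the pancreas in 3, 2 and 1 cases in the parotid, submandibular and sublingual glands (13.6%, 7.46% and 3.51% of all genes), with median log2 fold changes of -0.55, -0.56 and -0.16, beside -1.12, -0.94 and -1.10 for LIPC.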

How the data were processed

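RNA of 5 tissues from 6 macaques was sequenced as paired reads of 150 bases. The authors deposited 1 table of TPM values, one column per library; kallisto is among the tools in the submitters' processing notes, and its transcriptome, the genome build and the summing to genes are not given in the sources used here. Every column was used (0 left over). TPM keep no depth, so no counting interval is given, and abundant genes lower the share of all others.

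Values were compared as log2(TPM + 1), which understates changes of low genes, over the 13550 genes that reached 1 TPM in 6 or more libraries. The model had tissue and animal as terms (limma 3.58.1 with trend, R 4.3.3, all 30 libraries) and Benjamini-Hochberg adjustment over all genes of a comparison at 0.05. Animals are separate replicates and pair the tissues per the labels. Deviations from the tissue means had a mean r of 0.161 between libraries of the same animal (60 pairs). Between libraries that differed in both animal and tissue it was -0.0186 (300 pairs). Single values were tested by exact sign-flip permutation (Python 3.11.15, numpy 2.4.6). Scripts were tested on simulated data. Alternatives covered the block, pseudocount, filter, scaling, trend and each animal left out; leaving out the pancreas library of animal 4 was added after seeing the data. The members and the gene lists were chosen with earlier results of these data known. Genes named are the members, the 3 most alike to each, and from each pathway list the 3 largest changes past 0.05 per comparison; other genes were named after their values were seen.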

Additional observations from a re-analysis of the deposited data

Results flagged for a closer look

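In 35 sets of 6 libraries (the 6 members and the CLPS to PNLIP ratio in 5 tissues), 10 held a library far from the other 5 by the gap between it and its nearest neighbour. Chance picks about 1 in 20 sets, or 1.75 here, and the sets are not independent, since the genes move together. In the pancreas the library of animal 4 was the lowest by such a gap for PNLIP (320 TPM, next 8698), PNLIPRP1 (148, next 7694), PNLIPRP2 (103, next 4495), CLPS (1107, next 59960) and PLA2G1B (328, next 16336). In the parotid, animal 3, whose sample came from the right gland, was the lowest for PNLIP (55.1 TPM, next 154), PNLIPRP1 (34.6, next 72.0) and PNLIPRP2 (12.7, next 38.5). In the submandibular gland, animal 4 was the highest for LIPC (1.31 TPM, next 0.447) and for the ratio of CLPS to PNLIP (6.46, next 2.85). In 0 of 42 comparisons of a member between tissues did every male and every female differ in opposite directions.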

How the results depend on the processing

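The 27 called fold changes of members were recomputed under 15 alternatives, 405 values in all: 400 kept direction and call, 5 kept direction only (LIPC, submandibular gland against pancreas, with animals 1, 2, 3, 5 or 6 left out) and 0 reversed. Without the replicate block the counts of members called did not change, and unpaired exact permutation tests gave 28 of 42 under 0.05 after adjustment where the paired sign-flip tests gave 0. The number of members called in the submandibular gland against the liver was 1 to 5 with an animal left out in turn (5 without animal 4), and in the submandibular gland against the pancreas 5 to 6. Relative to the mean of the acinar products, 14 of 20 tests passed before and 14 after adjustment. Relative to their median these numbers were 4 and 0. The mean moves more than the median with SYCN, which was far less reduced outside the pancreas, and its part was not tested. With an animal left out, 0 to 0 passed relative to the median, since 5 animals cannot reach 0.05. Counts of all genes called moved more: over the alternatives they were 947 to 2728 in the parotid against the pancreas (2141 as reported), 623 to 3946 in the submandibular gland (1316), 1049 to 4277 in the sublingual gland (1887) and 2817 to 6575 in the pancreas against the liver (4114), the highest of the last 3 without animal 4. Depth is unknown and limits mainly LIPC in the glands, PNLIPRP3 and CLPSL2.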
